A study of Mus musculus with 2 samples.

Results

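Foci of the chemokines Cxcl9 and Cxcl10 far from metastases were 40 spots of 1 metastatic mouse lung section, out of 839 metastasis-distal spots and 1110 tissue spots in that section, and out of 2998 tissue spots in both sections of the series. A spot is a small capture area on a spatial transcriptomics array that can hold several cells of different types, and its position on the hexagonal grid is known. Metastasis core was defined first, as 64 spots that ranked in the top 80 for Myc, Csn3, Etv4, Mmp3 and AA467197 and had at least 2 of their 6 neighbours in that top 80. Among spots with at least 1000 counts that lay more than 5 hex steps from the core, the 40 with the highest summed Cxcl9 and Cxcl10 level were taken as foci, and the 550 with 0 counts of both genes were the reference. Because measured Cxcl9 and Cxcl10 chose the foci, their own levels are given only as a description.

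The metastatic lung came from an orthotopic breast cancer model, in which 4T1 mouse mammary tumour cells (1000000 cells) were injected into the mammary fat pad (m.f.p.) of female Balb/c mice aged 6 to 8 weeks, and lungs were taken after 21 to 23 days. The other section came from a lung that received no treatment, and its age and strain were not given in the sources used here. Each condition was 1 section, so no test across animals was possible and differences between the sections cannot be told apart from differences between libraries. All intervals are exact 95% intervals that cover counting error only, and spots of a section are not replicates of a condition.

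CXCL9 and CXCL10 are small secreted proteins that bind the receptor CXCR3 on activated T cells and natural killer (NK) cells and draw those cells into tissue. Interferon-gamma induces both genes together with guanylate-binding proteins and other interferon-induced GTPases, the antigen-presenting machinery of MHC class I and, through CIITA, MHC class II. Macrophages, dendritic cells, endothelium and epithelium can all make these chemokines, and Cxcl10 also responds to type I interferon and to inflammatory signals.

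The upstream promoter letters of the chemokines and of GTPase genes that were higher in the foci are shown because they hold or lack the motifs that interferon-responsive factors are known to bind. Sequences are from RefSeq on GRCm38.p6, written 5′ to 3′ on the strand of the gene, and capitals mark a match on either strand to GAAA, 2 bases of any kind and GAAA, the core of the interferon-stimulated response element, or to TTCNNNGAA, the gamma-activated site. Each window of 60 bases lies within the 250 bases before the annotated start, and motifs were counted from there to 50 bases after it.
Cxcl9 at chr5:92328080-92328139, minus strand: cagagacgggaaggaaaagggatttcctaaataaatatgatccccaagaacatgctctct
Cxcl10 at chr5:92349068-92349127, minus strand: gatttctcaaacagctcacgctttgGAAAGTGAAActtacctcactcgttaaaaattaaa
Gbp2 at chr3:142620579-142620638, plus strand: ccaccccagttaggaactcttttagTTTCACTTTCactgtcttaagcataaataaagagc
Igtp at chr11:58199485-58199544, plus strand: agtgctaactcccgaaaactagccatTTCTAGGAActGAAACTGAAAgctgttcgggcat
Irgm1 at chr11:48871421-48871480, minus strand: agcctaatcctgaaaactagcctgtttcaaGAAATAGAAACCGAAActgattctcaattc
The Cxcl10 match began 213 bases before the start, and the Gbp2 match 59 bases before it. The Igtp window held both motifs side by side, and the Irgm1 window held overlapping matches. No match to either motif lay in the promoter table's entry for Cxcl9, which says only that these letters are not in that window. The response element lay in the promoters of 10 of the 11 GTPase genes with an entry, against 2.98% of 32851 promoters and 3.46% of 27025 genes. TTCNNNGAA lay in 6 of those 11 genes, against 8.13% of all genes. Among the genes at least 2-fold higher in the foci that had an entry, 4.10% held the response element, against 3.25% of all tested genes with an entry. A match describes these letters and is not a shown binding site.

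The foci were shallower than their surroundings. The metastatic section held 14657881 counts in all with a median of 11334.5 per spot, the foci had 1030 to 17382 counts (median 6347.5), and the reference spots had 1401 to 72993 (median 10599). Spot barcodes are array positions, and 858 of them occurred in both sections by design.

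**Figure D1:**
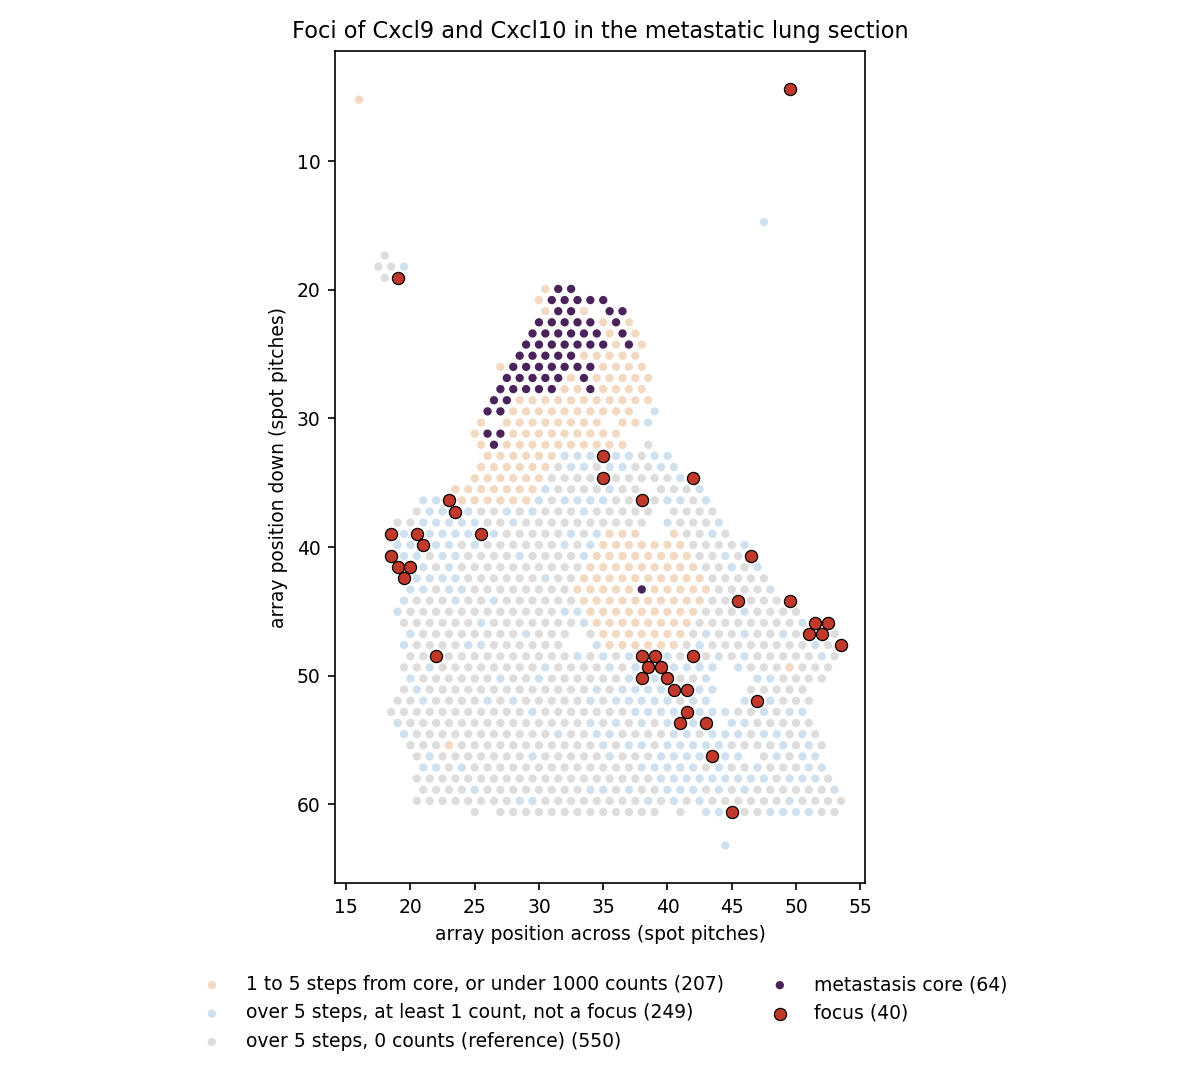
Array positions of the metastatic section, in spot pitches across and down; each point is 1 tissue spot and its colour gives its kind, with the number of spots in brackets. The foci form chains below a lone core spot and along the left and right edges, and 1 focus lies alone at the upper right with no tissue neighbour.

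The 40 foci held 83 counts of Cxcl9 and 49 of Cxcl10, which were 26.5% of all counts of both genes in the distal lung, from 4.77% of its spots. Summed levels ran from 2.92 to 13.97 counts per 10000 counts of a spot (CP10k), and the first spot outside the foci had 2.90. Both genes were counted in 17 foci, Cxcl9 alone in 15 and Cxcl10 alone in 8. The evidence in a single spot was thin. In 9 foci the rank rested on 1 count, in spots of 1030 to 3425 counts, in 10 it rested on 2 counts and in 21 on 3 or more. Over all distal spots, 168 held 1 count of these genes, at a median depth of 11073.5 counts.

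The focus ranked first was unlike the rest. It held 15 counts of Cxcl10 and 0 of Cxcl9 among 10741 counts, and lay at the edge of the tissue, 10 hex steps from the core. The next by counts were inner spots in which Cxcl9 led, with 7 counts of Cxcl9 and 1 of Cxcl10 in the focus ranked 7 and 5 and 2 in the focus ranked 4. The focus ranked second held 1 Cxcl9 count among 1030 counts and had no tissue neighbour at all.

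**Figure D2:**
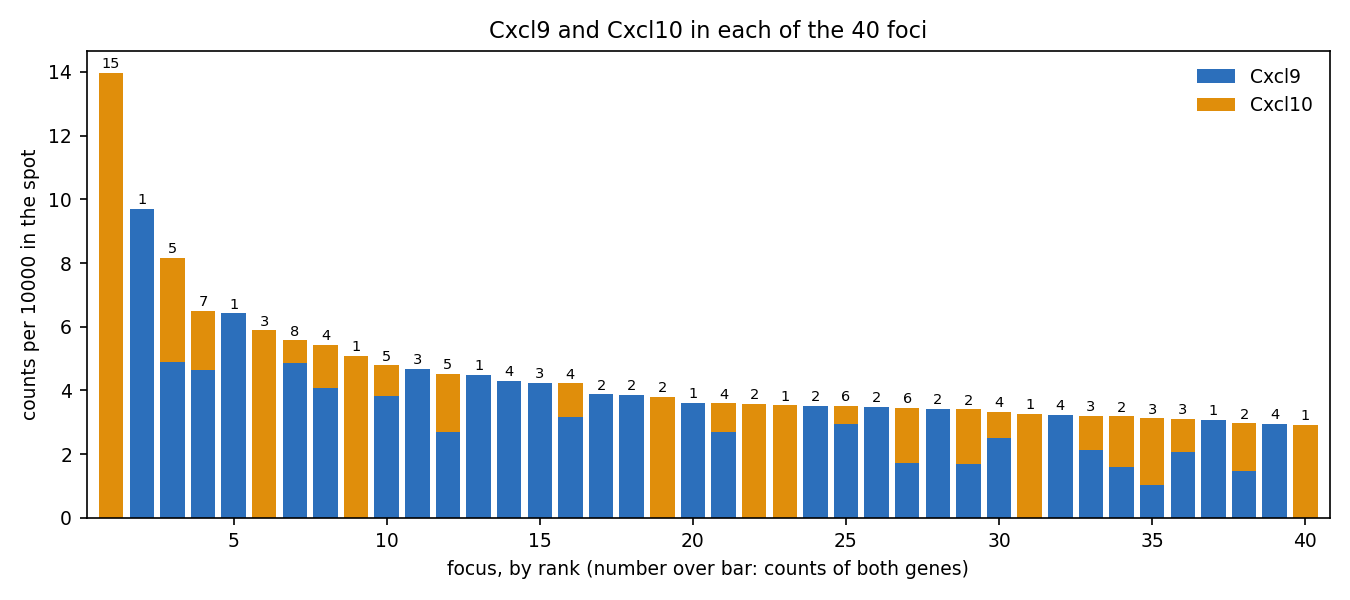
Cxcl9 (blue) and Cxcl10 (orange) level in each of the 40 foci, in counts per 10000 counts of the spot, ordered by rank, with the summed count over each bar. The first bar holds 15 Cxcl10 counts and no Cxcl9, and 9 bars rest on a single count.

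As a group the foci had 2.77 CP10k of Cxcl9 (2.20 to 3.43) and 1.63 of Cxcl10 (1.21 to 2.16). The core had 2.23 (1.99 to 2.49) and 2.65 (2.38 to 2.93). The levels of the foci were set by the way they were chosen and are given as a description. In the untreated lung, 1888 spots held 7 counts of Cxcl9 and 16 of Cxcl10 in 17 spots, or 0.00344 and 0.00787 CP10k.

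Neither gene had to follow the other, so each was read in spots chosen by the other alone. The 40 distal spots highest in Cxcl9 had 14 counts of Cxcl10, at 0.413 CP10k, against 0.110 in the 610 distal spots with 0 Cxcl9 (3.74-fold, 1.96 to 6.62). A Cxcl10 count was present in 27.5% of the former and 9.84% of the latter, and the former were the shallower spots (median 8530 against 10746.5 counts). In the other direction, the 40 highest in Cxcl10 had 3.38-fold (2.28 to 4.88) more Cxcl9 than the 725 with 0 Cxcl10. Of those sets, 25 and 19 spots were foci.

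On the array, 22 of the 40 foci touched another focus. They formed 24 connected groups, of which 1 held 8 spots, 2 held 4, 3 held 2 and 18 were single spots. Of 191 neighbouring distal positions counted from the foci, 42 were foci (22%, 16.3 to 28.5), while 4.16% of the 4596 neighbours of any distal spot were foci. Each touching pair of foci was counted from both sides, so these positions are not independent draws, as the interval takes them to be. The chance level of touching was not tested. Around the foci, a count of either gene was present in 56.0% of 116 adjacent spots (46.5 to 65.2), in 40.3% of 134 spots 2 steps away (31.9 to 49.1), and in 23.7% of 549 spots 3 or more steps away (20.2 to 27.5).

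The foci lay nearer to the core than the reference did, with a median of 10.5 hex steps (6 to 23) against 14 (6 to 27). Foci made up 7.49% of spots at 6 to 8 steps, 6.32% at 9 to 13, 2.99% at 14 to 18 and 1.82% from 19 steps on. Cxcl9 itself ran across the section from 4.38 CP10k at 1 to 2 steps and 2.77 at 3 to 5 steps to 0.425 at 6 to 8 steps and 0.204 beyond 18.

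These distances depended on 1 core spot. The core had groups of 60, 3 and 1 spots, and the lone spot, with 5 counts of the core genes among 6521, was the nearest core spot for 25 foci and for 81.8% of reference spots. All 8 foci of the largest group lay 6 to 9 steps from that lone spot and 22 to 27 steps from the core group of 60. Spots that adjoined this group at 5 steps from the lone spot held 5.36, 10.7 and 11.6 CP10k of both genes summed. The distance limit left them out, so this group bordered a zone of high Cxcl9 and Cxcl10 around the lone spot. With the lone spot left out of the core, 86 more spots became distal and 20 of the 40 foci then came from those 86, so that only 20 foci were shared. The ratios given below for gene groups were then 5.12 for interferon-gamma GTPases, 4.32 for MHC class II and 4.46 for T cell genes. The part of that lone spot in the choice of foci was tested no further.

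Place in the tissue also divided the foci. Edge spots, with fewer than 6 tissue neighbours, lay at the tissue border or beside a gap within the tissue. There 16 foci made up 9.76% of 164 distal spots, while 24 inner foci made up 3.56% of 675. Edge foci were shallower than inner foci (median 5208.5 against 9438 counts), as were edge against inner distal spots (9150.5 against 11455). In shallow spots a single count gives a higher level, and the part of depth in these shares was not tested. Edge foci had 2.48 CP10k of Cxcl9 (1.53 to 3.79) and 2.83 of Cxcl10 (1.81 to 4.21). Inner foci had 2.88 (2.21 to 3.69) and 1.16 (0.752 to 1.71). Of the 24 edge counts of Cxcl10, 15 came from the focus ranked first.

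Levels in the foci were compared with the reference gene by gene, and a gene was called at 2-fold. Of 10243 genes with at least 50 counts, 1215 (11.9%) were at least 2-fold higher and 459 (4.48%) at least 2-fold lower in the foci. The median gene stood 0.36 higher on the log2 scale, and the club cell gene Scgb1a1 took a median of 1.87% of counts in the foci and 12.5% in the reference. With haemoglobin, mitochondrial, surfactant, immunoglobulin and Scgb1a1 genes left out of the library size, the median was -0.03, and the split became 369 genes higher and 856 lower. Every list below is to be read against that shift, and each count of called genes against the shares of 11.9% higher and 4.48% lower. With the reference held to the depth range of the foci, which left 468 reference spots and 9346 tested genes, 572 genes were higher.

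Interferon-gamma GTPases were higher in both edge and inner foci, with much of the edge signal in 1 focus. They are immune effectors that attack the vacuoles of intracellular pathogens, and 10 of the 11 tested members were at least 2-fold higher in the foci, with 11.9% of all genes as the background and a median log2 difference of 1.46 against 0.36 over all genes. Their summed level was 9.83 CP10k in the foci against 2.96 in the reference, a ratio of 3.32 (2.93 to 3.75). By spot it ran from 0 through a median of 7.86 to 50.3 CP10k in the foci, and from 0 through 3.03 to 21.0 in the reference. The groups overlapped, but 36 of 40 foci stood above the reference median. Edge and inner foci gave nearly the same ratio, 2.93 (2.36 to 3.63) and 3.02 (2.58 to 3.53). Of the 116 edge counts, 54 came from the focus ranked first, and the edge ratio without it was not computed.

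Within that family, Gbp2, a guanylate-binding protein, had 67 counts in 27 foci and a ratio of 3.73 (2.83 to 4.83). Igtp, which encodes the immunity-related GTPase IRGM3, was counted in 22 foci, with a highest spot of 9.71 CP10k, and its ratio was 4.60 (3.19 to 6.49). Iigp1, also known as Irga6, was counted in 17 foci and its ratio was 4.75 (3.24 to 6.80). Irgm2 (3.16, 1.95 to 4.91), Gbp8 (5.01, 2.36 to 9.74), Gbp4 (2.68, 1.55 to 4.38), Gbp7 (2.31, 1.34 to 3.76), Irgm1 (2.31, 1.23 to 4.00) and Ifi47 (2.13, 1.29 to 3.34) were higher with intervals above 1. Gbp9 was the tested member below 2-fold, at 1.66 (0.779 to 3.15), and the interval of Gbp3 (2.24, 0.936 to 4.62) also included 1. The focus ranked first held 54 of the 295 GTPase counts, and without it the ratio was 2.81 (2.45 to 3.21).

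The signalling genes upstream of these targets differed less. Irf1, an interferon-induced transcription factor, had a ratio of 1.82 (1.38 to 2.37) and was counted in 29 foci, the receptor chain Ifngr2 had 2.08 (1.32 to 3.13) and the kinase Jak2 had 2.03 (1.20 to 3.24). Jak1 (1.21, 0.834 to 1.70), Irf9 (1.13, 0.578 to 2.02) and Ciita, the master regulator of MHC class II (1.07, 0.285 to 2.84), were not separated from 1. In all, 4 of 12 tested genes of this list were at least 2-fold higher and the list ratio was 1.64 (1.47 to 1.83). Of the 12, 11 had a ratio above 1, and the list median was 0.88 on the log2 scale against 0.36 over all genes.

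Interferon-gamma and the chemokine receptor were at the limit of counting. Ifng had 0 counts in the foci, which allows up to 0.100 CP10k, and 1 count in the reference. Cxcr3 had 1 count in the foci and 30 in the reference, a ratio of 0.775 (0.0190 to 4.66). A difference in either was not detectable at this depth.

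Type I interferon antiviral genes split. At least 2-fold higher were 5 of 17 tested: Ifi27l2a (3.82, 3.09 to 4.68), Bst2, which encodes the virus-tethering protein tetherin (3.44, 2.76 to 4.25), the nucleic acid sensor Zbp1 (4.51, 2.28 to 8.25), the ubiquitin-like Isg15 (2.89, 1.69 to 4.66) and the transcription factor Irf7 (2.13, 1.07 to 3.85). The classical members Ifit3 (1.61, 0.952 to 2.56), Oasl2 (1.38, 0.583 to 2.79), Rsad2 (1.16, 0.233 to 3.56) and Usp18 (1.13, 0.408 to 2.54) were not separated from 1. The list median was 0.57 on the log2 scale against 0.36 over all genes, and the summed ratio was 2.35 (2.10 to 2.62).

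**Figure D3:**
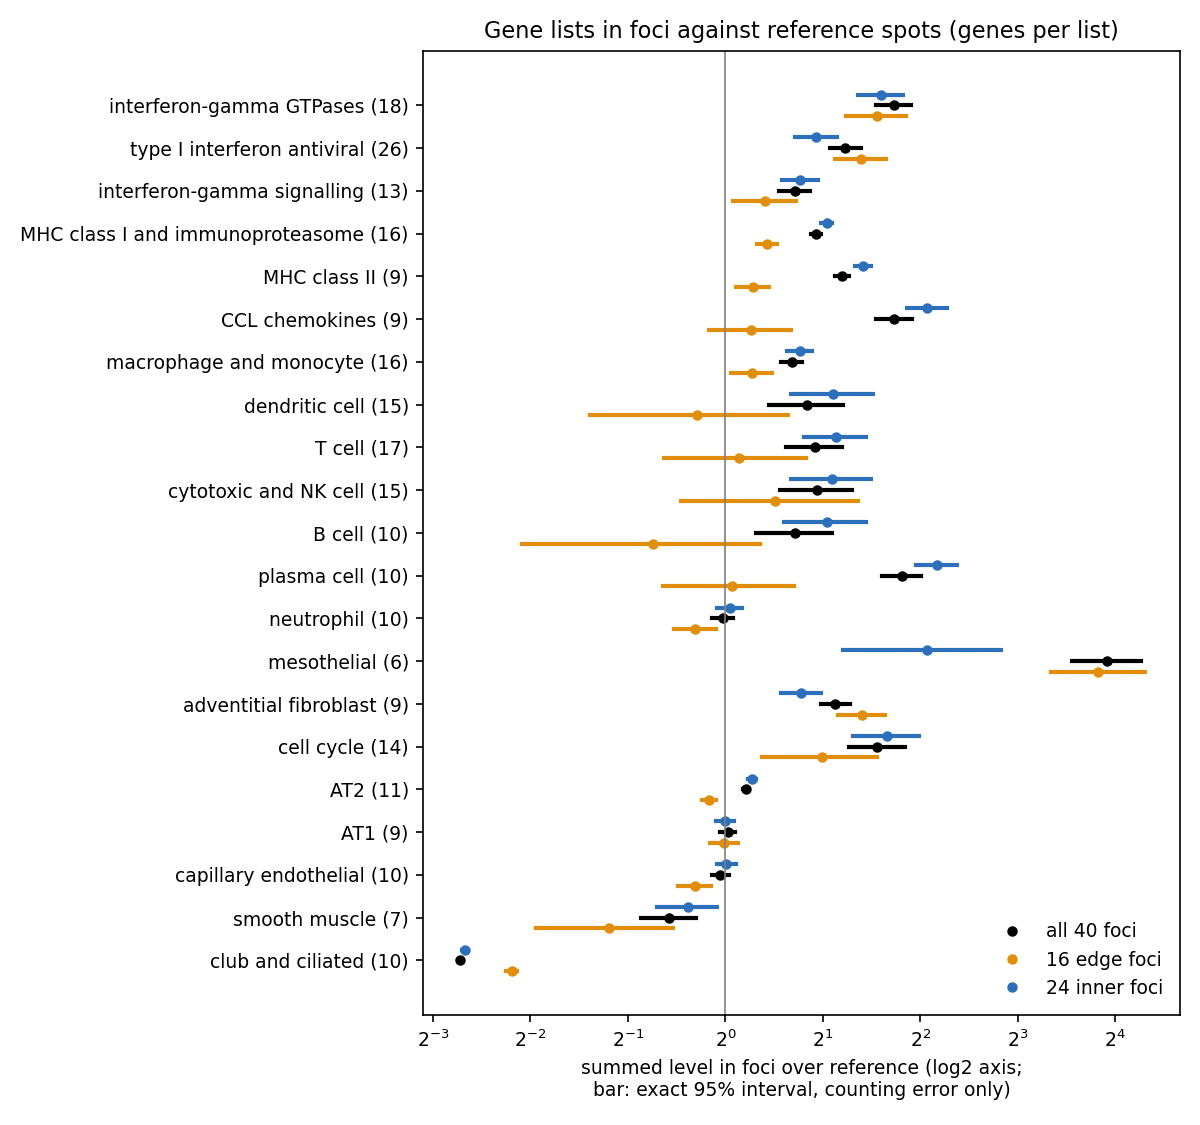
Summed level of each gene list in foci over reference on a log2 axis, for all 40 foci (black), the 16 edge foci against edge reference spots (orange) and the 24 inner foci against inner reference spots (blue); bars are exact 95% intervals. Interferon-gamma GTPases sit near 3 in all foci, edge foci and inner foci, with 54 of the 116 edge counts from 1 focus. MHC class II, CCL chemokines, T cell and plasma cell genes sit near 1 at the edge and above 2 inside.

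Antigen presentation was higher, more so in the inner foci. Of 8 tested MHC class II genes, 6 were at least 2-fold higher, against 11.9% of all genes, and the list median was 1.3 on the log2 scale. H2-Aa and H2-Ab1, the chains of the classical class II molecule I-A, had ratios of 2.41 (2.18 to 2.66) and 2.50 (2.26 to 2.77), and Cd74, the invariant chain, had 2.14 (1.98 to 2.30). H2-DMb2, a chain of the peptide editor DM, had 5.02 (2.89 to 8.31). The sum was 56.4 CP10k in the foci against 24.6, a ratio of 2.29 (2.18 to 2.41). It was 2.67 (2.52 to 2.82) in inner foci and 1.22 (1.08 to 1.37) at the edge, and 1.68 (1.57 to 1.80) without the largest group.

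MHC class I and immunoproteasome genes were at least 2-fold higher in 6 of 16, with a summed ratio of 1.91 (1.84 to 1.98). It was 2.06 (1.98 to 2.14) in inner foci and 1.34 (1.25 to 1.44) at the edge. The 6 were H2-K1 (2.32, 2.15 to 2.50), H2-Q7 (2.32, 1.73 to 3.06), the peptide transporter subunit Tap1 (2.74, 1.96 to 3.74), the proteasome subunits Psmb8 (2.65, 2.13 to 3.26) and Psmb9 (2.06, 1.46 to 2.82), and the proteasome activator Psme2 (2.61, 1.96 to 3.41). B2m, the shared light chain, was counted in all 40 foci at 11.7 to 48.5 CP10k and had a ratio of 1.87 (1.73 to 2.01).

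T cell genes were few in number. The foci held 110 counts over 17 genes, 30 foci had at least 1, and the summed level was 3.67 CP10k against 1.94 in the reference (1.89-fold, 1.54 to 2.30). Of 11 tested, 5 were at least 2-fold higher. Trac, the constant region of the T cell receptor alpha chain, had 13 counts and a ratio of 2.63 (1.36 to 4.67), Trbc2 had 2.05 (1.28 to 3.14), and Cd6 had 3.39 (1.29 to 7.53). Cd3d, Cd3e and Cd3g had 10, 4 and 10 counts with intervals that included 1. The T cell ratio was 2.19 (1.75 to 2.72) inside and 1.10 (0.644 to 1.77) at the edge. It was 1.20 (0.944 to 1.50) when foci and reference were limited to spots with Scgb1a1 under 5% of counts. Cytotoxic and NK cell genes gave 1.92 (1.47 to 2.46), with 0 of 3 tested genes at 2-fold. Their ratio was 1.24 (0.920 to 1.64) with Scgb1a1 under 5% and 1.40 (0.955 to 1.98) without the largest group. In bulk spots, more cells of a type and more RNA per cell cannot be told apart.

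Plasma cell genes stood out in the inner foci, and B cell genes were higher there mainly in the largest group. Igha, the constant region of IgA, had 123 counts in 21 foci and a ratio of 10.6 (8.45 to 13.1), and Igkc, the kappa light chain, had 143 counts and 5.36 (4.44 to 6.44). Inside, Igha reached 14.9-fold (11.8 to 18.7), while at the edge it was 1.63 (0.707 to 3.36). The largest group held 82 of the 123 Igha counts, and without that group the plasma cell ratio was 1.88 (1.49 to 2.35) in place of 3.51 (3.04 to 4.03). B cell genes gave 1.64 (1.24 to 2.14), and 1.09 (0.707 to 1.61) without the largest group. They were 2.06 (1.52 to 2.73) in inner foci and 0.60 (0.235 to 1.28) at the edge. The largest group held 33 of the 52 inner B cell counts. The B cell ratio was 1.26 (0.950 to 1.64) without abundant genes in the library size and 1.28 (0.917 to 1.75) with Scgb1a1 under 5%.

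Macrophage genes were called more often than the background of 11.9% of all genes. Of 12 tested, 9 were at least 2-fold higher, among them the complement genes C1qa (3.75, 3.09 to 4.53), C1qb (4.59, 3.71 to 5.64) and C1qc (3.96, 3.05 to 5.08), the monocyte receptor Ccr2 (2.73, 1.55 to 4.52) and Adgre1, which encodes F4/80 (4.50, 2.21 to 8.43). The summed ratio of 1.61 (1.49 to 1.73) included Ace, which lung endothelium also makes, with 315 of the 772 counts and a ratio of 0.955 (0.850 to 1.07). The list was 1.70 (1.56 to 1.85) in inner foci and 1.21 (1.04 to 1.40) at the edge. Dendritic cell genes gave 1.79 (1.36 to 2.31), with Xcr1, a marker of cross-presenting cells, at 4 counts in 3 foci. The dendritic cell ratio was 2.15 (1.60 to 2.85) in inner foci, 0.818 (0.382 to 1.56) at the edge and 1.26 (0.905 to 1.73) with Scgb1a1 under 5%. Neutrophil genes gave 0.983 (0.911 to 1.06). That ratio was 0.753 (0.698 to 0.810) when the library size omitted the abundant genes, 0.699 (0.643 to 0.759) with Scgb1a1 under 5% and 0.686 (0.626 to 0.750) without the lone core spot.

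Other chemokines were also higher. Of 6 tested CCL chemokines, 4 were at least 2-fold higher and the summed ratio was 3.32 (2.92 to 3.77). The monocyte attractants Ccl2 (11.4, 6.40 to 19.6), Ccl8 (10.8, 8.45 to 13.7) and Ccl12 (9.81, 5.42 to 17.1) led. Ccl8 ran from 0 to 21.2 CP10k by spot, was counted in 19 foci, and was 14.6-fold (11.2 to 18.8) higher inside against 2.50 (1.16 to 4.96) at the edge. Ccl5, a T cell and NK cell chemokine, had 1.71 (1.12 to 2.52). The CCL list was 4.20 (3.63 to 4.85) inside and 1.20 (0.887 to 1.59) at the edge.

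The edge foci carried mesothelial genes and had higher ratios of the complement genes C3 and Cfb than the inner foci. Mesothelial genes mark the pleural lining, and 10 of 16 edge foci against 5 of 24 inner foci held a count. Their summed level was 11.2 CP10k (9.07 to 13.7) in edge foci and 0.743 (0.425 to 1.21) in inner foci. Msln, which encodes mesothelin, had 44 counts in 10 foci and a ratio of 15.7 (10.5 to 23.4). C3, the central complement component, had 811 counts in 37 foci, from 0 through 7.43 to 245 CP10k, against a reference median of 2.04 and a highest of 94.9. Its ratio was 8.50 (7.83 to 9.22), 7.88 (7.03 to 8.82) at the edge and 4.37 (3.80 to 5.02) inside. Cfb, complement factor B, had 11.3 (8.84 to 14.4), with 9.43 at the edge and 4.55 inside. The complement gene C1qb went the other way, with 2.54 (1.58 to 3.96) at the edge and 5.22 (4.10 to 6.59) inside. The focus ranked first alone held 253 of the C3 counts, 32 of 103 Cfb counts, 16 of 44 Msln counts and 43 of 111 mesothelial counts. Mesothelial counts moved with these results, and their part in the Cxcl10 and complement levels of the edge foci was not tested.

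Genes of the metastasis core were themselves higher in the foci. None of the 40 was in the top 80 for those genes, which the distance rule nearly fixed, as only 1 of 839 distal spots was. A core gene count was present in 23 foci, and the summed level was 1.60 CP10k against 0.229 in the reference (6.97-fold, 4.94 to 9.68). It was 0.159 times that of the core (0.117 to 0.213). Myc, the transcription factor and oncogene, supplied 29 of 48 counts, with a ratio of 7.02 (4.47 to 10.7). Cell cycle genes were at least 2-fold higher in 7 of 8 tested, with a summed ratio of 2.95 (2.40 to 3.59), and included Mcm5 (4.65, 2.35 to 8.52) and Tyms (4.49, 2.12 to 8.64). Limited to the 17 foci and 427 reference spots with no core gene count, the GTPase ratio was 2.48 (1.90 to 3.20) and the MHC class II ratio 1.84 (1.66 to 2.04). Whether tumour cells were present in the foci was not tested.

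Airway genes were lower in the foci. Club and ciliated cell genes were at least 2-fold lower in 8 of 9 tested, against 4.48% of all genes, with a summed ratio of 0.152 (0.149 to 0.154). Scgb1a1 ran from 9.71 through 187 to 2635 CP10k in the foci, against a median of 1249 in the reference, and had a ratio of 0.151 (0.148 to 0.153). The ciliated cell regulator Foxj1 had 0 counts in the foci and 305 in the reference, at least 4.37-fold lower against a floor of 3 counts over all foci, and Calml4 was likewise at least 5.42-fold lower. Alveolar lists stayed near the reference, with AT1 at 1.02 (0.966 to 1.07), capillary endothelium at 0.965 (0.909 to 1.02) and AT2 at 1.16 (1.13 to 1.19). With the library size computed without the abundant genes, AT2 turned to 0.886 (0.866 to 0.908), AT1 to 0.780 (0.740 to 0.823) and alveolar fibroblasts from 1.07 to 0.817.

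The lower airway signal moved together with the immune lists. Limited to 33 foci and 165 reference spots with Scgb1a1 under 5% of counts, the club and ciliated ratio became 0.825 (0.799 to 0.852). There GTPases were still 2.07 (1.80 to 2.38), MHC class II 1.73 (1.63 to 1.84), CCL chemokines 2.12 (1.83 to 2.46) and plasma cell genes 3.47 (2.91 to 4.13). MHC class I was 1.24 (1.19 to 1.29), and macrophage genes were 1.07 (0.983 to 1.16).

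**Figure D4:**
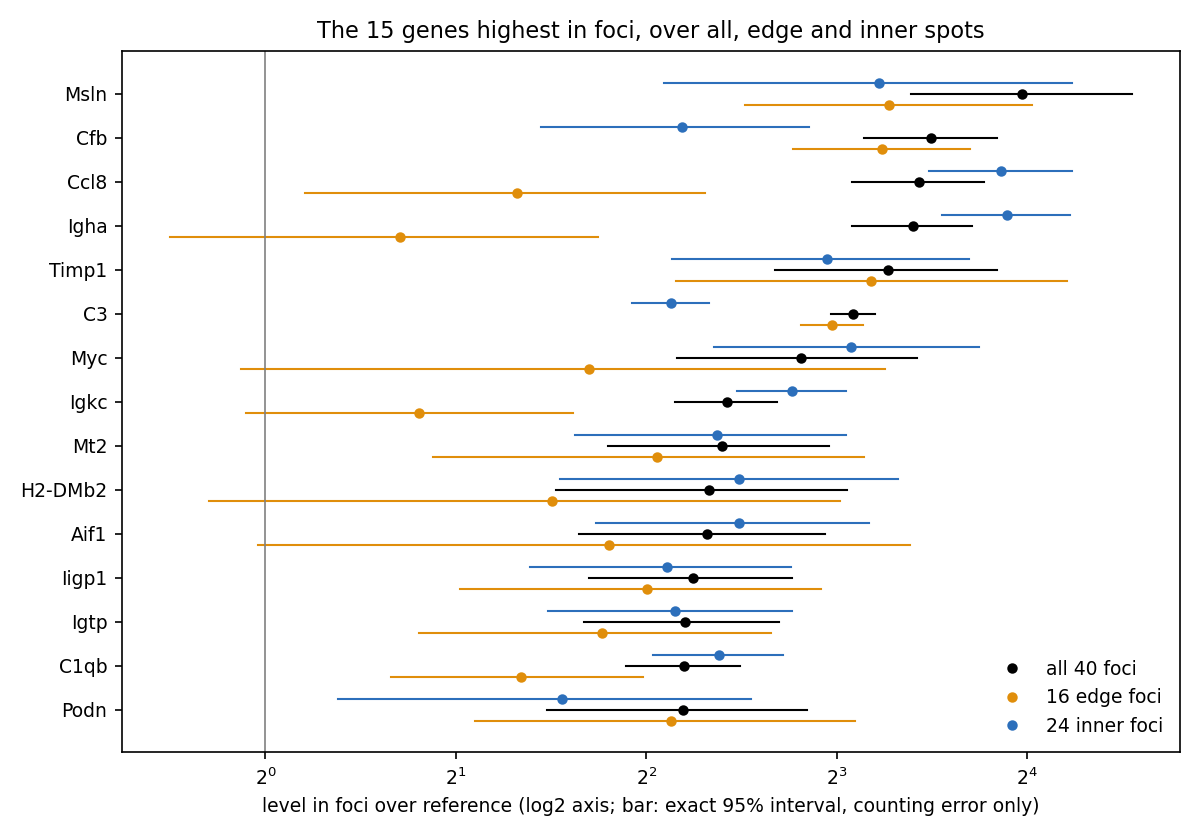
Ratio of each of the 15 named genes highest in the foci, on a log2 axis, over all 40 foci (black), 16 edge foci against edge reference spots (orange) and 24 inner foci against inner reference spots (blue), with exact 95% intervals. Ccl8, Igha and Igkc are higher inside, while the C3 ratio is higher at the edge.

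The 15 highest genes by the naming rule were Msln, Cfb, Ccl8, Igha, Timp1, C3, Myc, Igkc, Mt2, H2-DMb2, Aif1, Iigp1, Igtp, Podn and C1qb. Timp1, an inhibitor of matrix metalloproteinases, had a ratio of 9.66 (6.40 to 14.3), and Mt2, a metal-binding metallothionein, had 5.28 (3.48 to 7.79). Timp1 was 9.08 at the edge and 7.71 inside, and Mt2 was 4.16 and 5.17. Aif1, a macrophage gene that encodes IBA1, had 4.99 (3.14 to 7.68), and Podn, a matrix proteoglycan, had 4.57 (2.79 to 7.19). The 10 lowest were Calml4, Foxj1, Nme9, 1700007K13Rik, Cfap126, Mmrn2, Riiad1, Scgb1a1, 2610028H24Rik and Tspan1. Among them Mmrn2, a gene of endothelium, had 0 counts in the foci but 1.40 (0.729 to 2.45) when foci were ranked by Cxcl10 alone.

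The largest group joined 8 inner foci with 9619 to 17382 counts each, 30 counts of Cxcl9 and 13 of Cxcl10, and each of its spots held both genes. Its MHC class II level was 86.2 CP10k (80.6 to 92.2), against 36.1 (35.1 to 37.1) in the core. T cell genes were at 4.79 (3.53 to 6.34) and plasma cell genes at 14.8 (12.5 to 17.3), above the core at 2.14 (1.90 to 2.40) and 8.12 (7.65 to 8.62). GTPases were at 10.3 (8.38 to 12.5), below the core at 13.2 (12.6 to 13.8). It held 23 core gene counts and 1 mesothelial count.

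Many lists graded outwards around the foci, in spots not ranked as foci, among them interferon-gamma GTPases, MHC class II and T cell genes. Macrophage and neutrophil genes did not fall at each step. Macrophage genes were at 25.7 CP10k in the foci and at 21.7, 23.0 and 15.6 in spots 1, 2 and 3 or more steps away, and neutrophil genes were at 24.3, 28.4, 32.3 and 23.8. GTPases went from 9.83 CP10k in the foci to 5.64 (5.26 to 6.05) in adjacent spots, 5.03 (4.68 to 5.40) at 2 steps and 2.79 (2.68 to 2.92) from 3 steps on. MHC class II went from 56.4 to 39.2, 35.2 and 24.6, and T cell genes from 3.67 to 2.81, 2.62 and 1.91. Adjacent spots were above the spots 3 or more steps away by 2.02-fold (1.86 to 2.19) for GTPases. That ratio was 1.59 (1.55 to 1.64) for MHC class II and 1.47 (1.31 to 1.64) for T cell genes. CCL chemokines (2.28, 2.10 to 2.48), plasma cell genes (2.03, 1.85 to 2.23) and MHC class I (1.49, 1.46 to 1.52) were also higher in adjacent spots. Club and ciliated genes were lower there, at 0.619 (0.616 to 0.622). Neither airway content nor distance from the core was held equal across these spots. Against the untreated section, the foci were 3.80-fold (3.37 to 4.27) higher in GTPases, while the reference was 1.14-fold (1.09 to 1.20) higher. Club and ciliated genes were at 1.66 times the untreated level (1.657 to 1.663) in the reference and 0.252 (0.247 to 0.256) in the foci. Those airway genes share the library size with every other list, and their part in the ratios between sections was not tested. For some other lists the reference was below the untreated section. It stood at 0.878 times that level (0.863 to 0.893) for MHC class II and 0.799 (0.751 to 0.848) for T cell genes. Cytotoxic and NK cell genes were at 0.466 (0.432 to 0.501) and B cell genes at 0.494 (0.458 to 0.531). Neutrophil genes went the other way, at 9.72 times (9.43 to 10.0) in the reference and 9.56 (8.83 to 10.3) in the foci. The reference was also above for immune checkpoint (1.70, 1.33 to 2.18), macrophage (1.10, 1.07 to 1.12) and MHC class I genes (1.10, 1.08 to 1.11). The foci stood at 2.01 times the untreated level (1.92 to 2.11) for MHC class II and 1.51 (1.24 to 1.82) for T cell genes, but at 0.892 (0.692 to 1.13) for cytotoxic and NK cell genes and 0.812 (0.617 to 1.05) for B cell genes.

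**Figure D5:**
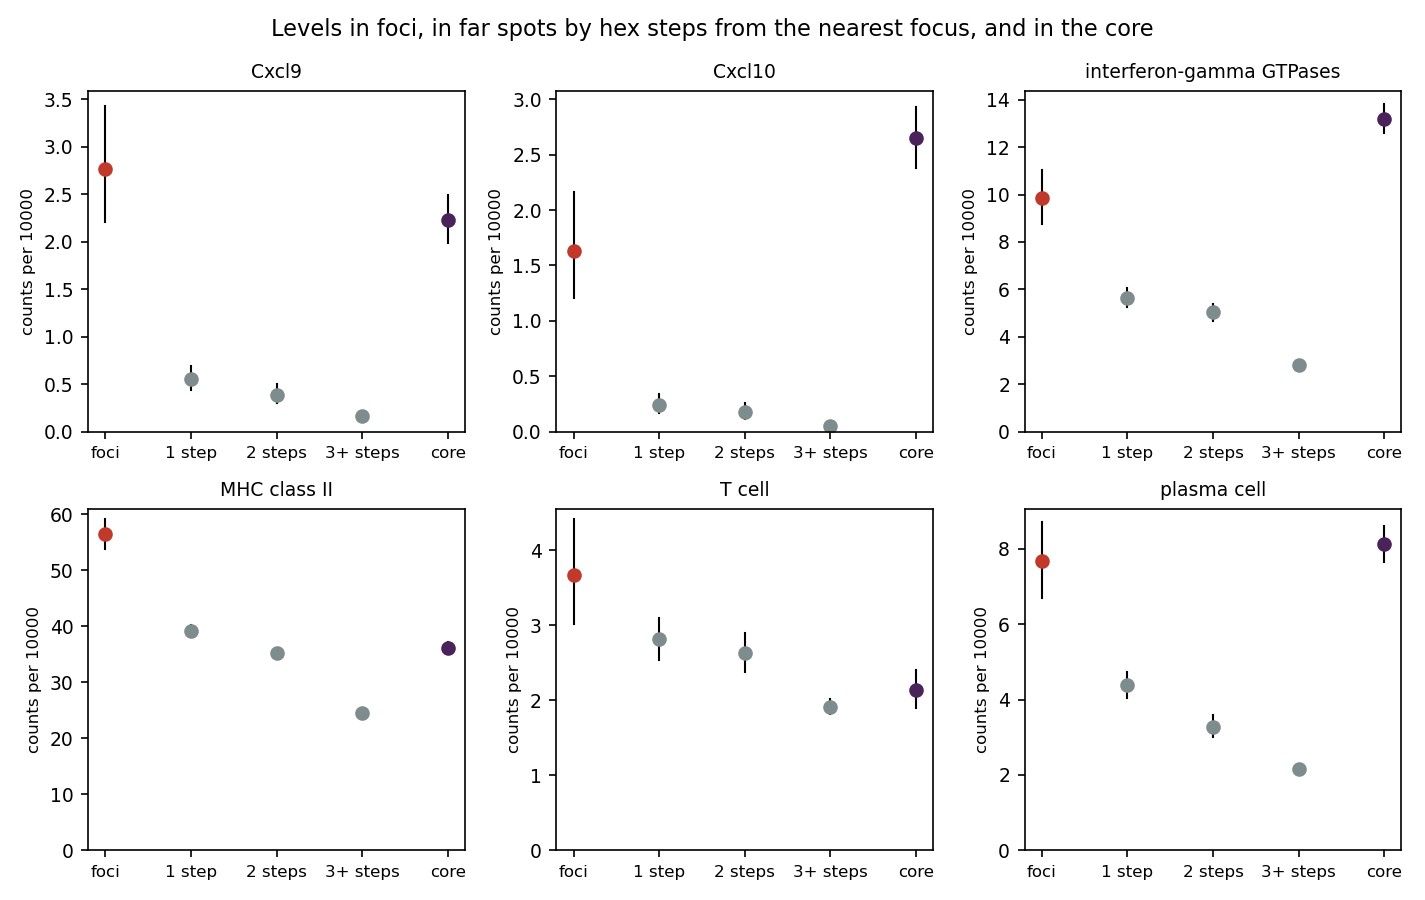
Level of Cxcl9, Cxcl10 and the summed level of 4 gene lists, in counts per 10000, in foci (red), in distal spots 1, 2 and 3 or more hex steps from the nearest focus (grey) and in the metastasis core (purple), with exact 95% Poisson intervals. The 4 lists shown grade down from the foci to the most distant spots, and the core exceeds the foci in Cxcl10 and GTPases but not in MHC class II or T cell genes.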

How the data were processed

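Spatial gene expression was measured on 2 mouse lung sections, 1 metastatic and 1 untreated. The authors deposited raw counts per gene and spot, made with Space Ranger 1.3.1 on mm10 per the submitters' processing notes, and no replicate section. In the metastatic section, core, foci and reference were chosen among tissue spots with at least 1000 counts, while levels of the untreated section were summed over all 1888 tissue spots. Spots are small regions and no doublet caller was run. Levels were summed counts of a gene or list per 10000 counts (CP10k). Genes with at least 50 counts in foci and reference were compared, on a log2 scale after a pseudocount of 0.5, and called at 2-fold. Exact Poisson intervals of 95% were used for levels, the exact interval of the split of counts for ratios and exact binomial (Clopper-Pearson) intervals for shares. Depth was 14657881 counts in the metastatic and 20329126 in the untreated section. With 1 section per condition no test was run. The foci and all gene lists were chosen with earlier results of these data known. Named genes had at least 100 counts in foci and reference and kept their direction without the largest group of foci. They were the 15 highest with a count in at least 10 foci and the 10 lowest with a count in at least 25% of reference spots. Of 335 listed genes, 4 were not analysed here. A further listed gene is not reported here. Alternatives changed the choice of core, distance, foci, reference, library size and filters. The scripts were tested on simulated data. Promoters came from RefSeq on GRCm38.p6, and 252 of 352 named and listed genes had an entry. Python 3.11.15, numpy 2.4.6, scipy 1.17.1, pandas 2.3.3 and matplotlib 3.10.9 were used.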

Additional observations from a re-analysis of the deposited data

How the results depend on the processing

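The ratios of interferon-gamma GTPases, MHC class II and T cell genes stayed above 1 under every alternative run, but the sizes moved. At the edge (1.10, 0.644 to 1.77) and with Scgb1a1 under 5% (1.20, 0.944 to 1.50) the T cell interval included 1. GTPases ranged from 2.07 to 6.04, MHC class II from 1.22 to 4.32 and T cell genes from 1.10 to 4.46. In the order GTPases, MHC class II and T cell genes, the ratios were 4.77, 4.01 and 4.11 with a minimum of 5000 counts per spot, 6.04, 3.56 and 3.38 over 3 hex steps from the core, and 5.12, 4.32 and 4.46 without the lone core spot. In that order they were 2.60, 1.96 and 1.48 with the reference held to the depth range of the foci, 2.54, 1.75 and 1.45 without abundant genes in the library size, 2.50, 1.74 and 1.51 as means of spots, 3.82, 1.83 and 1.42 at 9 to 13 steps, and 2.07, 1.73 and 1.20 with Scgb1a1 under 5%.

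GTPases alone moved to 3.90 with 20 foci, 2.62 when spots were ranked by raw counts, and 2.81 without the focus ranked first. GTPases and MHC class II moved to 2.30 and 2.14 when ranked by Cxcl9 alone, 2.81 and 2.01 against all other distal spots, 2.89 and 2.98 at 6 to 8 steps, 2.13 and 1.47 at 14 or more steps, and 2.48 and 1.84 with no core gene count. MHC class II and T cell genes moved to 1.96 and 1.50 when ranked by Cxcl10 alone, 1.75 and 1.42 with a core from the top 120, 1.79 and 1.54 with no neighbour condition, 2.98 and 3.08 after thinning to 5000 counts, and 1.22 and 1.10 at the edge. MHC class II alone moved to 2.12 with 80 foci, 1.83 over 8 steps, 1.68 without the largest group and 2.67 in inner spots.

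Against 1215 genes at least 2-fold higher, 1969 were higher with a minimum of 5000 counts, 1996 with 20 foci, 720 with 80 foci, 670 ranked by raw counts, 1910 over 3 steps, 572 with the matched depth range, 369 without abundant genes, 2410 and 687 with gene minimums of 10 and 100 counts, and 2210 without the lone core spot. Against 22 foci that touched another, 9 did with 20 foci, 54 with 80 and 14 without the largest group. Mmrn2 reversed, to 1.10 with 80 foci and 1.40 when ranked by Cxcl10 alone, and Myc had a ratio of 0 at 14 or more steps. The causes were not tested. Among the other 33 results, 551 of 881 values stayed within their counting interval, 327 moved beyond it and 3 reversed.

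The choice of foci itself was sensitive to depth. Ranked by raw counts, 20 of the 40 foci were the same spots, and with a minimum of 5000 counts 23 were. After thinning, which left out 82 spots, 12 were shared. No paired analysis was possible because each condition was 1 section, and for the same reason no section could be left out.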

Other observations

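Genes of neutrophil precursors were at 0 counts in the foci. Ngp had 259 counts in the reference, at least 3.71-fold more than the floor of 3 counts over all foci, and Ltf had 113, at least 1.62-fold more. Mmp9, a protease of mature neutrophils, had 21 counts in the foci and a ratio of 2.67 (1.61 to 4.20).

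Adventitial fibroblast genes had a ratio of 2.19 (1.97 to 2.43), with 2.64 (2.23 to 3.12) in edge foci and 1.72 (1.49 to 1.97) in inner foci. Col3a1, a fibrillar collagen, had 4.22 (3.41 to 5.18). Vcam1, an adhesion molecule that leukocytes bind on endothelium, had 2.38 (1.63 to 3.37), and Icam1 had 1.32 (1.12 to 1.54). Cxcl13, the chemokine that attracts B cells, had 12 counts in 5 foci and a ratio of 7.75 (3.67 to 15.2), while Ccl21a, which attracts T cells and dendritic cells, had 0.875 (0.648 to 1.16). Ighg2b, an IgG heavy chain gene, had 25 counts in 5 foci against 23 counts in the reference, a ratio of 25.3 (13.8 to 46.6).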
